A study of Mus musculus with 9 samples.

Results

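The cytosolic ribosomal proteins are described here in mouse Balb/c-3T3 fibroblasts and in derivatives that carry v-Src or STAT3-C. The probesets were chosen by their gene symbol alone: those annotated with a single symbol made of Rpl or Rps and a number, with or without a suffix, leaving out the Rps6k kinases and the pseudogenes. This gave 102 probesets of 47 genes, out of 45037 probesets tested and 18193 genes measured by a probeset with 1 symbol. Of the 47 genes, 40 code for core ribosomal proteins (91 probesets) and 6 for paralogs of a core protein (10 probesets), namely Rpl39l, Rpl22l1, Rpl7l1, Rps27l, Rpl3l and Rps4l. The remaining gene, Rps19bp1, matched the rule by name but codes for a binding partner of ribosomal protein S19 and not for a subunit, so the counts below rest on the 101 probesets of the other 46 genes. A further 109 probesets carry several symbols of which at least 1 is ribosomal, and many core proteins are measured only by these. They were left out of the counts unless stated.

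The ribosome is built from a small and a large subunit, each a set of proteins folded onto ribosomal RNA, and each core protein is normally present once per subunit. In mammals the messages of these proteins are among the most abundant of a growing cell, share a pyrimidine-rich start, and are controlled together at translation by growth signals. A few core proteins have paralogs encoded by separate genes, some of them known mainly from testis or muscle, which can replace the core protein in the ribosome or act in its assembly.

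The study asked which genes change with persistent activity of the transcription factor STAT3, and used 3 lines with 3 arrays each. The control is the parental Balb/c-3T3 line with no plasmid named in its labels. The v-Src line was stably transfected with pMvSrc, which encodes the viral tyrosine kinase that keeps STAT3 phosphorylated, and the STAT3-C line with pRc/CMV-STAT3C, which encodes a STAT3 mutant that dimerises without phosphorylation. All lines grew in DMEM with bovine calf serum, and each array holds total RNA pooled from 5 dishes at 1 of 3 passages of 1 line. The arrays of a line are therefore passages of the same stable line, so each p-value rests on variation among passages, and the effect of a transgene and that of the selection of a line cannot be told apart. With 3 arrays against 3, an exact permutation test of a single value could not go below p = 0.1.

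Across all probesets array medians of log2 expression ran from 6.27 to 6.39. The lower quartiles, taken here as the level near background, ran from 5.07 to 5.16. Of the 4 Stat3 probesets, 1 rose in both lines (1460700_at, log2 differences of 1.30 in v-Src and 0.72 in STAT3-C), and another rose in v-Src (1426587_a_at, 1.53) and did not pass in STAT3-C (0.24). The fibroblast markers were present, with a median level of 12.4 over 10 genes in control cells, 10.9 in v-Src cells and 10.7 in STAT3-C cells, and 6 of the 10 fell in v-Src and 7 of the 10 in STAT3-C. Thy1 was among them, with log2 differences of -5.17 and -5.18. Over all genes, by 1 probeset each, 10.4% fell in v-Src and 10.3% in STAT3-C. The markers of other cell types had medians of 5.66 to 6.07 for epithelium (5 genes), 6.36 to 6.73 for leukocytes (4 genes) and 4.89 to 5.13 for endothelium (4 genes). Epcam was the highest of them, at a mean of 9.38. Of these 13 genes, 1 rose against control, the macrophage gene Cd68 in STAT3-C (log2 difference 1.14). Of all genes 9.54% rose in v-Src and 11.9% in STAT3-C. The part of these marker changes in the ribosomal protein values was not tested.

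The core ribosomal proteins sat at the top of the arrays and moved little. Of the 101 probesets, 67 had a mean log2 level of at least 11 over the 9 arrays, 59 lay above the level that separates the highest 1% of probesets, and 5 lay below the lower quartile. No probeset had a mean between 10 and 11, and this gap was used to separate probesets of high level from the others after the values were seen. A call required an adjusted p under 0.05 from limma and a change of at least 1.5-fold.

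In v-Src against control, 5 of the 101 probesets rose (4.95%) and 5 fell (4.95%), where 8.75% of all probesets rose and 8.10% fell. In STAT3-C against control, 18 rose (17.8%) and 4 fell (3.96%), where 9.68% of all probesets rose and 8.58% fell. Those that fell in each line, here and in the counts by gene below, include Rpl39l, picked with its difference on these arrays known. In v-Src against STAT3-C, 2 were higher in v-Src (1.98%, against 4.99% of all probesets) and 11 were lower (10.9%, against 5.33%). With no fold threshold, 24 of the 101 rose and 9 fell in v-Src (15.0% and 13.3% of all probesets), 43 rose and 5 fell in STAT3-C (16.2% and 13.4%), and 4 were higher and 35 lower in v-Src than STAT3-C cells (10.2% and 10.1%). The v-Src and STAT3-C comparisons share the 3 control arrays. By the methods the controls were normalized with each line separately, so either comparison with control may span runs. Run and line could then not be told apart there. With 1 probeset a gene, the one of highest mean level, 3 genes rose and 2 fell in v-Src, 9 rose and 2 fell in STAT3-C, and 1 was higher and 3 lower in v-Src than STAT3-C cells, out of 46 genes; over all 18193 genes the shares were 9.54% and 10.4%, 11.9% and 10.3%, and 4.84% and 6.83%.

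The share that rose in STAT3-C was next set against that of all probesets with a signal as high. Among the 63 core probesets with a level of at least 11, 11 rose in STAT3-C (17.5%), while 22.4% of all probesets of such a level did. In v-Src 3 of the 63 rose (4.76%), while 14.9% of all probesets of such a level did, and none of the 63 fell in either line, while 8.60% of all high probesets fell in each. Between the transfected lines none of the 63 was higher in v-Src and 4 were lower, while 5.65% and 12.0% of all high probesets were. With no fold threshold, 17 of the 63 rose in v-Src and none fell (27.3% and 17.2% of all high probesets), 34 rose in STAT3-C (54.0%) and none fell (39.0% and 13.8% of all high probesets), and none was higher and 22 were lower in the direct comparison (12.0% and 27.3%). In STAT3-C the core share thus lay below that of all high probesets with the fold threshold and above it without, and neither difference was tested. The median log2 difference of these 63 probesets was 0.13 in v-Src and 0.31 in STAT3-C, and that of all 1291 probesets of such a level was 0.04 and 0.21. The per-array medians of the 63 were 13.01, 13.09 and 13.08 in control cells, 13.24, 13.18 and 13.22 in v-Src cells and 13.41, 13.33 and 13.38 in STAT3-C cells. These medians did not overlap between the lines, although the steps were far below the 1.5-fold threshold of 0.58 on the log2 scale. The per-array medians of high probesets outside the rule ran from 11.58 to 11.71 in control, 11.65 to 11.70 in v-Src and 11.76 to 11.87 in STAT3-C. There too STAT3-C lay above both other lines, while v-Src and control overlapped.

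Proteins of both subunits showed small positive medians. Of the 33 high probesets of small subunit proteins, none passed in v-Src by limma's test with the fold threshold (9 rose without it) and 5 rose in STAT3-C, with medians of 0.10 and 0.30. Of the 30 of large subunit proteins, 3 rose in v-Src and 6 in STAT3-C, with medians of 0.19 and 0.35. The shares that rose in STAT3-C were 15.2% (small) and 20% (large), and 10% of the large subunit probesets rose in v-Src. Of all high probesets 14.9% rose in v-Src and 22.4% in STAT3-C, with medians of 0.04 and 0.21. Without the fold threshold 27.3% of the small subunit probesets rose in v-Src, as did 27.3% of all high probesets. The core proteins named outside the rule, Rplp0 and Rplp2 of the stalk, Rpsa and Fau, had levels between 13.2 and 13.5, and none of these 4 was called in any comparison by limma (with no fold threshold 1 was lower, in STAT3-C). The 109 probesets with several symbols gave similar counts, with 6 higher and 2 lower in v-Src, and 20 higher and 3 lower in STAT3-C. These are 5.50%, 1.83%, 18.3% and 2.75%, where 8.75%, 8.10%, 9.68% and 8.58% of all probesets were called.

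**Figure D1:**
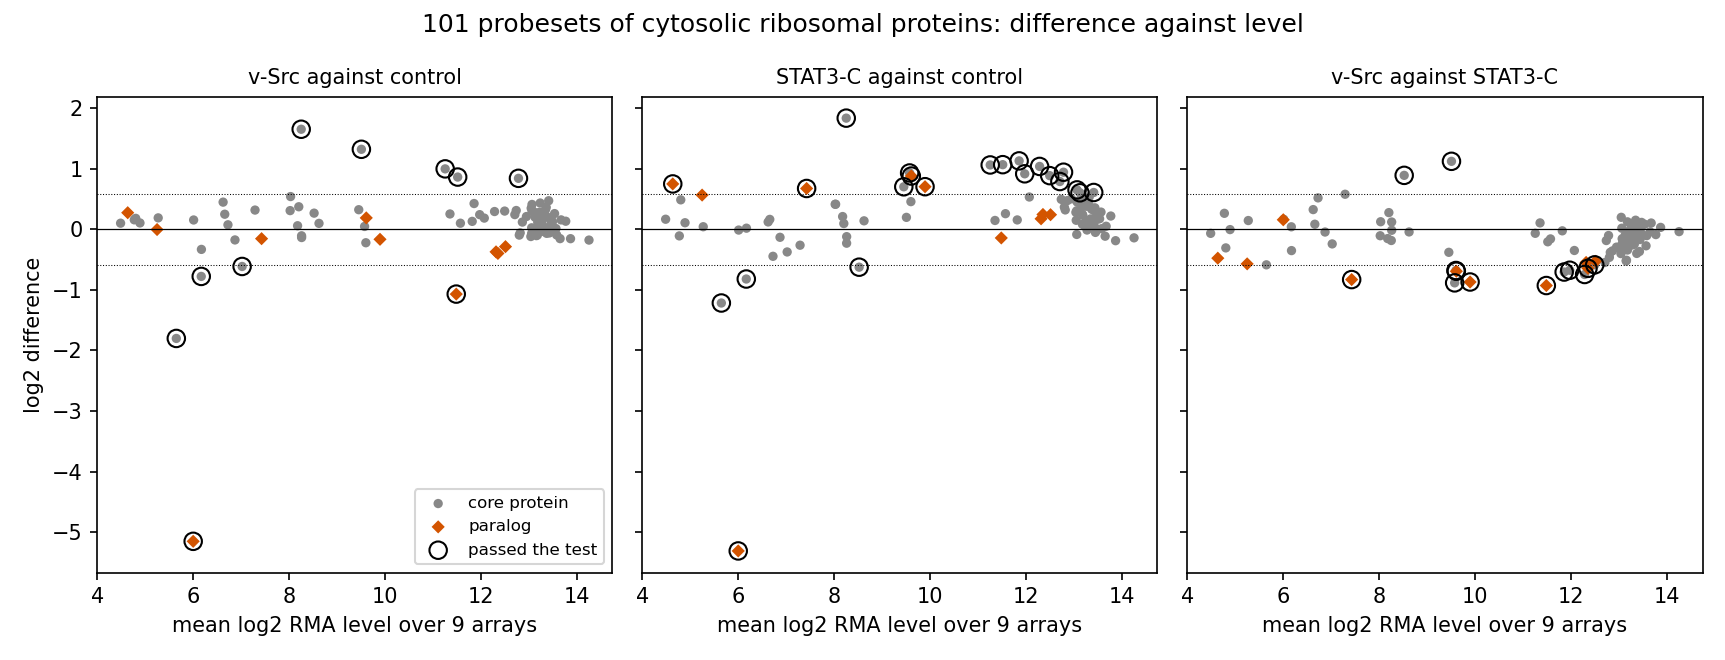
Log2 difference (vertical) against the mean log2 level over the 9 arrays (horizontal) of the 101 ribosomal protein probesets, in 1 panel for each pair of lines; grey circles are core proteins, orange diamonds paralogs, rings mark probesets that passed the test, and dotted lines mark a 1.5-fold change. Most core probesets lie near 13 and close to 0, and Rpl39l stands alone at -5.15 and -5.31. Rpl39l was picked with its difference known, so its rings are not read as a test.

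Rpl39l was the member with the greatest difference. Its product is a paralog of the small protein encoded by Rpl39, which lines the exit tunnel of the large subunit, and it is known mainly from testis. The single probeset of Rpl39l (1423327_at) read 9.41, 9.52 and 9.53 in the control arrays, 4.27, 4.36 and 4.37 in the v-Src arrays, and 4.18, 4.27 and 4.08 in the STAT3-C arrays. Every array of both transfected lines was below the lower quartile of its array, and neither line overlapped the control. The log2 difference was -5.15 (SE 0.07, n = 3 arrays a line) in v-Src and -5.31 (SE 0.09) in STAT3-C, a 35.5-fold and a 39.7-fold difference, and the lines differed from each other by 0.16 (SE 0.08). No test is given, since the gene was picked with its difference on these arrays known, and a level this near background sets only a lower limit on the change. The calls of Rpl39l remain in the counts of probesets and genes that fell against control, and are not support.

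Rpl39, the core counterpart, did not follow by its only probeset of the rule. That probeset reads at a mean of 8.26 and belongs to those under 11, where low and high probesets of a gene can differ. Its probeset (1423032_at) read 8.38, 8.42 and 8.33 in control cells, 8.28, 8.28 and 8.24 in v-Src cells, and 8.11, 8.02 and 8.31 in STAT3-C cells. Both transfected lines were slightly below control without overlap. The log2 difference was -0.11 (SE 0.07, adjusted p = 0.297 from limma) in v-Src and -0.23 (SE 0.10, adjusted p = 0.139) in STAT3-C, and neither passed. The ratio of Rpl39l to Rpl39 within a cell cannot be read from these values, because levels of different probesets are not on a common scale.

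The nearest measured protein-coding genes on either side of Rpl39l showed smaller differences in both directions. After it lie Atf7ip2 and Emp2, a membrane protein gene whose 3 probesets all rose in both lines, by 1.42 to 2.07 in v-Src and by 0.78 to 1.42 in STAT3-C on the log2 scale. Of the 3 Atf7ip2 probesets, all at mean levels of 3.85 to 4.81 near background, 1 fell, by 0.69 and 0.74. Before it lie Grin2a, at a mean level of 4.88 and with no call, and 1810013L24Rik, of whose 5 probesets 1 fell in both lines, by 0.85 and 0.69.

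The promoter windows of Rpl39l and Rpl39 are shown because the paralog and its counterpart differed in response, and that of Rpl22l1 because it fell in only 1 of the lines by its test. Each holds the 200 bases from -250 to -51 relative to the RefSeq start (GRCm38.p6, strand of the gene), with matches to the STAT-type spacing TTNNNNAA, TTNNNNNAA or the same with 6 bases between TT and AA, searched on both strands, in capitals. The windows are chr16:10169978-10170177 on the + strand for Rpl39l, chrX:37085273-37085472 on the - strand for Rpl39 and chr3:28805258-28805457 on the + strand for Rpl22l1.
Rpl39l: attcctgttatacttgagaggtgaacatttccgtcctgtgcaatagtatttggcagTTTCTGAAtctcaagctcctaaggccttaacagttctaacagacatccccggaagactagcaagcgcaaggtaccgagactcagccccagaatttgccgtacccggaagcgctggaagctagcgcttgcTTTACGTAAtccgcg
Rpl39: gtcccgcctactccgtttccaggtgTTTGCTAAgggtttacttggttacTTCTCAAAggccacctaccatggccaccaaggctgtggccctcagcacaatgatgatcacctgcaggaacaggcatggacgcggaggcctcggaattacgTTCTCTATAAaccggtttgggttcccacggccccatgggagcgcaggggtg
Rpl22l1: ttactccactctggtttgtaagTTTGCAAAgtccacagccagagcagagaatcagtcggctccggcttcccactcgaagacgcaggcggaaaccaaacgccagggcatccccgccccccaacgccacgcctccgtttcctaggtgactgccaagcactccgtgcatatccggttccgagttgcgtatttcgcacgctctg
Rpl39l held 3 matches in 2 stretches, 1 of which contains overlapping matches, Rpl39 held 3, and Rpl22l1 held 1. None held the stricter palindrome TTCNNNGAA. The looser spacing is common, since 71.0% of 32851 promoters of the same length hold it.

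**Figure D2:**
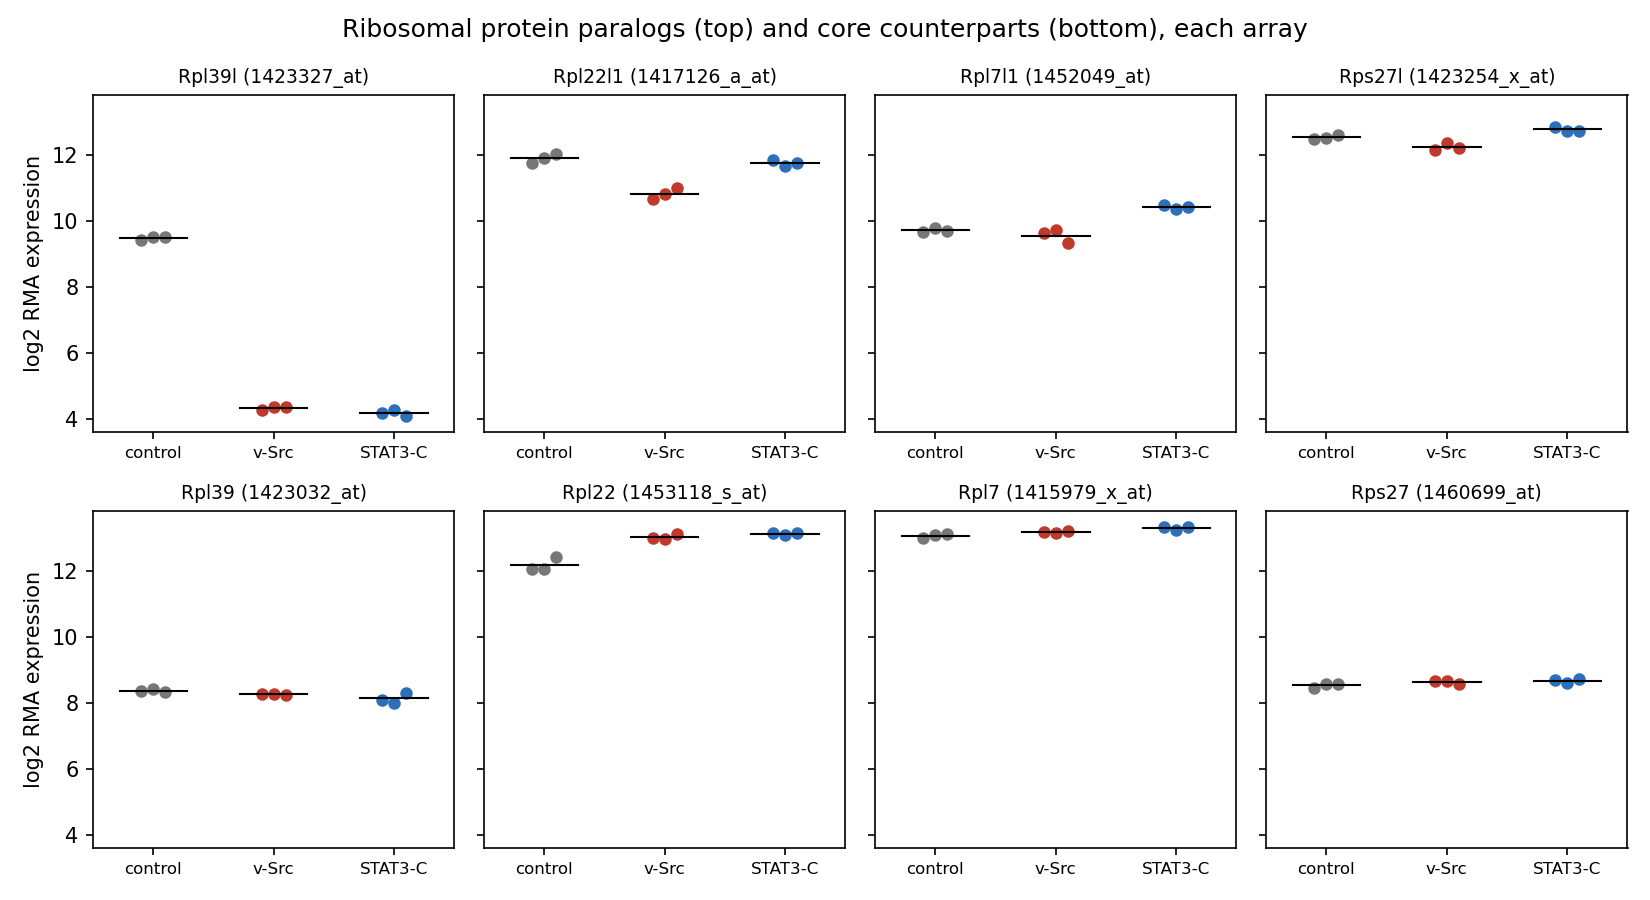
Log2 RMA expression (vertical) of each array in control, v-Src and STAT3-C cells, for 4 paralogs (top row) and their core counterparts (bottom row); points are arrays and bars are means of 3, and levels are to be read within a panel only. Rpl39l drops from 9.41-9.53 to 4.08-4.37 in both lines, Rpl22l1 is low in v-Src only, and Rpl7l1 is high in STAT3-C only.

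Rpl22 and its paralog Rpl22l1 moved in opposite directions in v-Src. Rpl22 is a protein of the large subunit surface that is dispensable for translation itself, and Rpl22l1 can take its place. The highest Rpl22 probeset (1453118_s_at) read 12.08, 12.07 and 12.43 in control cells, 13.02, 12.97 and 13.11 in v-Src cells, and 13.15, 13.09 and 13.16 in STAT3-C cells. Both transfected lines lay above the control without overlap. The log2 difference was 0.84 (SE 0.11, adjusted p = 0.00167 from limma) in v-Src and 0.94 (SE 0.12, adjusted p = 0.00061) in STAT3-C.

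A second Rpl22 probeset (1416603_at) rose likewise, by 0.86 in v-Src and 1.07 in STAT3-C. The third (1448398_s_at) read 9.06, 9.26 and 8.68 in control cells, 10.50, 9.96 and 10.51 in v-Src cells, and 9.23, 9.61 and 8.76 in STAT3-C cells. It rose by 1.32 in v-Src (SE 0.20, adjusted p = 0.00254 from limma), but in STAT3-C its difference of 0.20 (adjusted p = 0.563) did not pass and its arrays overlapped the control. It was the only Rpl22 probeset called between the transfected lines (1.12, adjusted p = 0.0152), and that call was lost without STAT3-C array 1, v-Src array 1 or v-Src array 6 (adjusted p up to 0.0629).

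Rpl22l1 (1417126_a_at) read 11.77, 11.89 and 12.01 in control cells, 10.66, 10.80 and 11.01 in v-Src cells, and 11.84, 11.67 and 11.75 in STAT3-C cells. The v-Src arrays lay below all others, while STAT3-C overlapped the control. It fell by 1.07 (SE 0.11, adjusted p = 0.000567 from limma) in v-Src on the log2 scale, its difference in STAT3-C was -0.14 (SE 0.10, adjusted p = 0.343), and v-Src was below STAT3-C by a log2 difference of -0.93 (SE 0.11, adjusted p = 0.00168). Rpl22l1 was the 1 member of a level of at least 11 that fell in v-Src.

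Rpl7l1 rose in STAT3-C by all of its 3 probesets. Its product is related to Rpl7 and acts in assembly of the large subunit. The highest probeset (1452049_at) read 9.67, 9.80 and 9.68 in control cells, 9.62, 9.72 and 9.32 in v-Src cells, and 10.48, 10.37 and 10.41 in STAT3-C cells. STAT3-C lay above both other lines, which overlapped. The log2 difference in STAT3-C was 0.71 (SE 0.09, adjusted p = 0.000616 from limma) for this probeset, and 0.88 and 0.68 for the others (1426386_at and 1439780_at). In v-Src the 3 differences were -0.16, 0.19 and -0.15, and none passed. Directly, v-Src was below STAT3-C by -0.87, -0.69 and -0.83, and all 3 passed (adjusted p = 0.0026, 0.00336 and 0.000737). The core counterpart Rpl7 showed no call: its 3 probesets differed by 0.23, 0.53 and 0.50 in STAT3-C and by 0.12 to 0.23 in v-Src. In STAT3-C their adjusted p from limma were 0.0806, 0.0035 and 0.00447, so those of 0.53 and 0.50 missed only the fold threshold.

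Rps27l, a paralog of the zinc-binding small subunit protein Rps27, lay lowest in v-Src and highest in STAT3-C. Its probeset 1435429_x_at read 12.37, 12.46 and 12.38 in control cells, 11.90, 12.17 and 11.96 in v-Src cells, and 12.71, 12.61 and 12.64 in STAT3-C cells, with no overlap between any of the lines. Against control its differences of -0.40 (adjusted p = 0.0169 from limma) and 0.25 (adjusted p = 0.0631) were below 1.5-fold. Between the lines the difference of -0.64 (SE 0.09, adjusted p = 0.00373) passed, though not after the table was quantile normalized again. The other 2 probesets (1423254_x_at and 1450925_a_at) differed by -0.53 and -0.55 with adjusted p = 0.00656 and 0.00547 and missed the fold threshold. Rps27 itself, read by 1 probeset of low level (1460699_at, mean 8.63), differed from control by 0.10 and 0.14 and was not called.

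Rps4l and Rpl3l were measured near background. Rps4l, related to the small subunit protein Rps4x, read 4.20, 4.34 and 4.34 in control cells, 4.55, 4.61 and 4.55 in v-Src cells and 5.38, 4.83 and 4.92 in STAT3-C cells. Its rise in STAT3-C (0.75, adjusted p = 0.0059 from limma) was lost without STAT3-C array 1. Rpl3l, known from striated muscle, had a mean level of 5.25 and passed in no comparison with the deposited values of all arrays. Between the transfected lines its difference of -0.57 (adjusted p = 0.0346 from limma) missed only the fold threshold. It passed there with median centring and without STAT3-C array 1.

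With each gene counted by its probeset of highest level, Rpl27a and Rpl37 had the highest differences of the core proteins in both lines, followed by Rpl22, and both belong to the large subunit. Rpl37 (1438291_x_at) read 10.50, 10.63 and 10.57 in control cells, 11.68, 11.41 and 11.61 in v-Src cells, and 11.70, 11.73 and 11.48 in STAT3-C cells. Both lines lay above the control and overlapped each other, with differences of 1.00 (SE 0.09, adjusted p = 0.000322 from limma) and 1.06 (SE 0.10, adjusted p = 0.00016). Rpl27a (1437729_at) read 6.87, 7.20 and 7.20 in control cells, 8.95, 8.92 and 8.36 in v-Src cells, and 8.92, 8.77 and 9.10 in STAT3-C cells. Its differences of 1.65 (SE 0.18, adjusted p = 0.000571) and 1.84 (SE 0.13, adjusted p = 3.8e-05) were the highest of any core protein. This probeset reads at a mean of 8.25 and belongs to those under 11, and the gene's other probeset (1419799_at) lay near background at 4.80 and was not called.

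In STAT3-C the calls included Rpl27 and Rps24, each by several probesets. Rpl27 is a large subunit protein; its probeset 1448217_a_at read 11.14, 11.32 and 11.56 in control cells, 11.79, 11.75 and 11.76 in v-Src cells, and 12.54, 12.39 and 12.49 in STAT3-C cells. STAT3-C was above both other lines, with a difference from control of 1.13 (SE 0.12, adjusted p = 0.000307 from limma). A second probeset (1453096_x_at) rose by 0.92. The third and highest (1416099_at, mean level 13.4) differed by 0.13 (adjusted p = 0.27).

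Rps24 is a small subunit protein whose loss of 1 copy in people can cause Diamond-Blackfan anaemia. Of its 6 probesets, 3 rose in STAT3-C, by 1.04 (1456628_x_at), 0.89 (1428530_x_at) and 0.79 (1453362_x_at). The first of these read 11.73, 11.93 and 11.87 in control cells, 12.10, 12.11 and 12.20 in v-Src cells, and 13.04, 12.86 and 12.75 in STAT3-C cells, with no overlap between lines. The probeset of highest level (1436064_x_at) differed by 0.38 and missed the fold threshold. A low probeset (1436500_at) fell in v-Src by 0.61 (SE 0.07, adjusted p = 0.000816), a call lost without v-Src array 6, and read 7.34, 7.39 and 7.32 in control cells against 6.76, 6.78 and 6.68 in v-Src cells.

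A further 6 core genes were called in STAT3-C. Rps25 (1430978_at), of the small subunit head, rose by 0.93 (SE 0.15, adjusted p = 0.00249 from limma), reading 9.07, 9.30 and 9.38 in control cells and 10.23, 9.88 and 10.43 in STAT3-C cells, while in v-Src (9.43, 9.37 and 9.09) it differed by 0.05. Rps3 rose by 0.70 by 1 of its 3 probesets (1455600_at, mean level 9.45). Its highest probeset (1435151_a_at, mean level 13.5) differed by -0.05 and the third (1447563_at) by -0.26, and neither passed. Rps19, Rps3a1 and Rpl11 rose by 0.65, 0.61 and 0.60, just past the threshold, and all 3 were lost when the table was quantile normalized again. Without control array 1 Rpl11 was lost too, and without STAT3-C array 1, or with median centring, Rpl11 and Rps3a1 were. Rps6, the small subunit protein phosphorylated by the S6 kinases, fell by 0.62 (1416142_at, SE 0.10, adjusted p = 0.00179), reading 8.53, 8.71 and 8.69 in control cells, 9.02, 8.83 and 8.88 in v-Src cells, and 8.09, 8.03 and 7.93 in STAT3-C cells. Its STAT3-C arrays lay below all others, and the call was lost without STAT3-C array 3. This Rps6 probeset reads at a mean of 8.52, under 11. The gene's other probeset (1453466_at), near background at 4.77, differed by -0.11 in STAT3-C and was called in no comparison.

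Rps20, a small subunit protein, was called lower in both lines by 2 of its 4 probesets, both of low level. Probeset 1450417_a_at read 6.71, 6.67 and 6.58 in control cells, 5.05, 4.30 and 5.21 in v-Src cells, and 5.49, 5.94 and 4.89 in STAT3-C cells, and fell by 1.80 (SE 0.22, adjusted p = 0.00109 from limma) and 1.22 (SE 0.23, adjusted p = 0.00498). Probeset 1421935_at fell by 0.78 and 0.82. The 2 probesets at a level near 13 (1456373_x_at and 1456436_x_at) differed by -0.12 and -0.09 in v-Src and by 0.28 and 0.25 in STAT3-C, and none of these passed. The calls of Rps20 thus rest on probesets that did not move with those of highest level.

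Probesets of the same gene often differed in their call. Of the 23 genes with several probesets, 4 had at least 1 called in v-Src and in 1 of them, Rpl22, all were called. In STAT3-C 8 had at least 1 called and all were called in Rpl7l1 alone; between the lines the numbers were 7 and 1, again Rpl7l1. No gene had probesets called in opposite directions within a comparison. Rpl35 and Rps10, with 6 probesets each, had no call: in STAT3-C the Rpl35 probesets of high level differed by 0.33 to 0.51, and its low probeset by -0.01. Of the 101 probesets, 40 carry a suffix that marks possible binding to other transcripts (_x_at), 27 one for transcripts of the same gene (_a_at) and 3 one shared by several genes (_s_at), and reads of processed pseudogenes of these genes cannot be told apart from the genes themselves on the arrays.

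**Figure D3:**
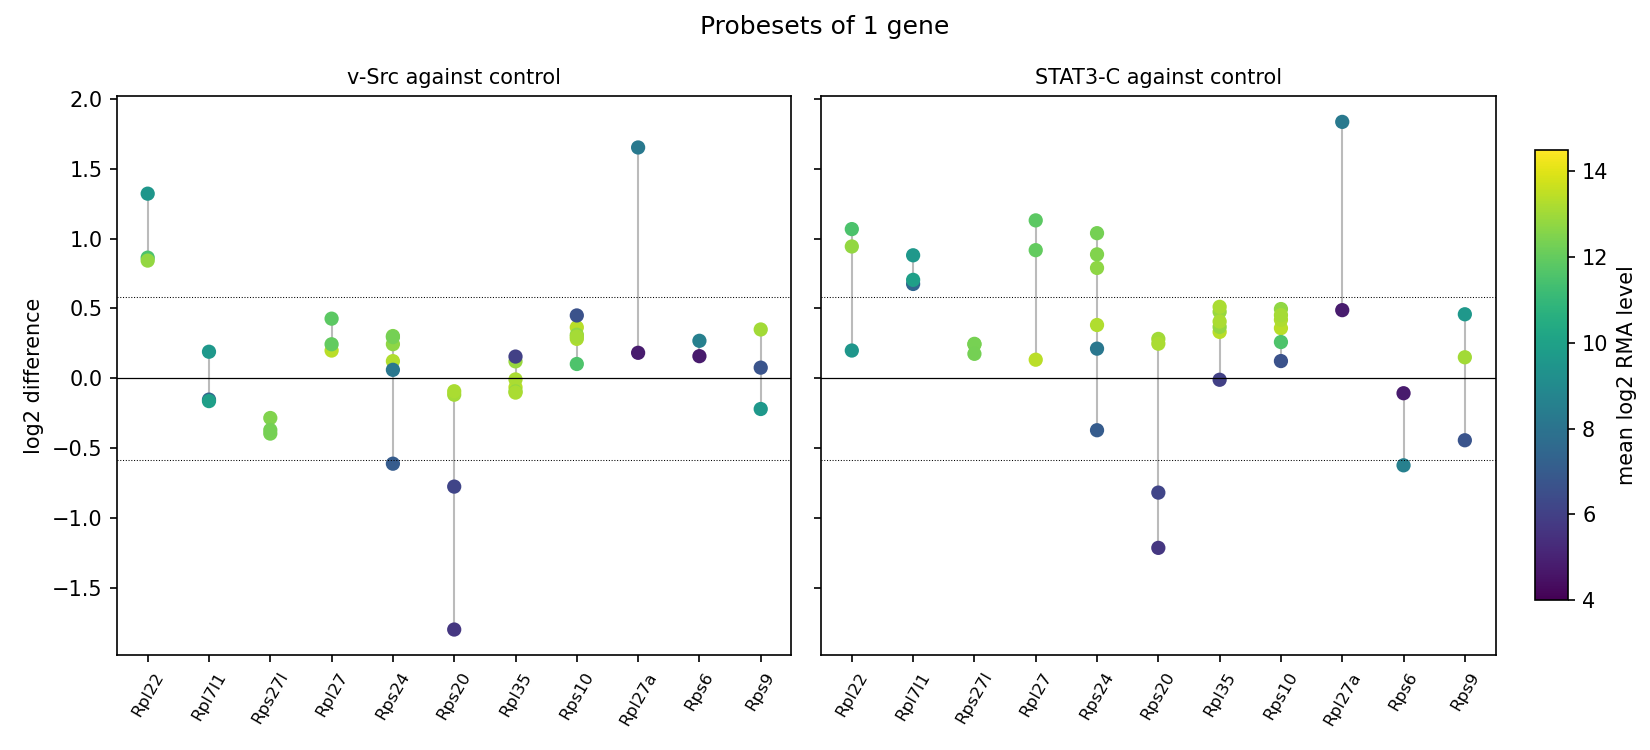
Log2 difference against control (vertical) of every probeset of 11 ribosomal protein genes (horizontal), in v-Src (left) and STAT3-C (right); colour gives the mean log2 level over the 9 arrays, grey lines join probesets of a gene and dotted lines mark 1.5-fold. The 3 probesets of Rpl7l1 lie together in STAT3-C, while the low probesets of Rps20 lie far below its high ones.

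At the other end, with the same 1 probeset a gene, which leaves out the low Rps20 and Rps24 probesets above, the core genes with the lowest differences were Rpl41, Rps26 and Rpl39 in v-Src (-0.18, -0.15 and -0.11) and, beside Rps6 and Rpl39, Rpl41 in STAT3-C (-0.14), and none of these except Rps6 passed. Rpl41, a very short peptide of the large subunit, had a mean signal of 14.3.

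Between the transfected lines, 9 genes had a called probeset, 2 higher and 7 lower in v-Src. Higher in v-Src were Rps6 (0.89, SE 0.09, adjusted p = 0.000921 from limma) and the third probeset of Rpl22. Lower were Rpl22l1, Rpl7l1, Rps27l, Rps25 (-0.88, adjusted p = 0.00816), Rpl27 (-0.70 and -0.67, the second lost after another quantile normalization), Rps24 (-0.74 and -0.59, the second lost likewise) and Rps9 (1434624_x_at, -0.68, adjusted p = 0.0092). For Rps9, whose product is placed early in small subunit assembly, the arrays read 9.45, 9.20 and 9.26 in v-Src cells and 10.10, 10.11 and 9.74 in STAT3-C cells, while its highest probeset differed by 0.20 and did not pass. That value and 0.15 for Rpl6 came next after Rps6 among the core genes at 1 probeset a gene. Rpl35 (-0.40) and Rps20 (-0.34) came next after Rps25 at the lower end, and none of these 4 probesets was called. Of the 10 paralog probesets, 5 were lower in v-Src than STAT3-C cells, with a median over the 10 of -0.61, beside 6 of the 91 core probesets and 5.33% of all probesets. The core median of -0.10 was -0.0489 after another quantile normalization and 0.0193 without suffixed probesets, so no direction is read from it. Of these 5, 3 belong to Rpl7l1. The direct comparison spans columns that, by the methods, may come from separate normalization runs, and run and line can then not be told apart.

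Rps19bp1, which the rule matched by name, rose by 1.16 in STAT3-C (SE 0.15, adjusted p = 0.000866 from limma), reading 8.89, 9.24 and 9.21 in control cells and 10.38, 9.98 and 10.46 in STAT3-C cells. In v-Src it differed by 0.32 and did not pass.

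The mitochondrial ribosomal proteins, which build the separate ribosome of that organelle, were measured for 76 genes at 1 probeset each, with a median level of 9.67. In STAT3-C 25 rose and 4 fell, with a median log2 difference of 0.36, and in v-Src 5 rose and 10 fell, with a median of -0.11. Between the lines 23 of the 76 were lower in v-Src and none higher, with a median of -0.39; at an adjusted p under 0.05 with no fold threshold 37 were lower and 1 higher, where 10.1% and 10.2% of all probesets were. Over all genes the shares called were 9.54% higher and 10.4% lower in v-Src, 11.9% higher and 10.3% lower in STAT3-C, and 6.83% lower and 4.84% higher in v-Src than STAT3-C cells. Mrps21 and Mrpl33 rose in both lines, with log2 differences of 1.74 and 0.96 in v-Src and 1.63 and 1.48 in STAT3-C. Mrpl36, Mrps30 and Mrps6 fell in both, by 1.65, 1.24 and 1.17 in v-Src and by 0.99, 1.20 and 1.28 in STAT3-C. Mrps9, Mrpl55 and Mrpl54 were lowest in v-Src relative to STAT3-C (-1.25, -1.19 and -1.11).

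The other steps of ribosome production and use gave mixed counts. Of 71 ribosome assembly and nucleolar factors, 4 rose and 12 fell in v-Src, 15 rose and 13 fell in STAT3-C (5.63%, 16.9%, 21.1% and 18.3%, where 9.54%, 10.4%, 11.9% and 10.3% of all genes did), and 6 were lower and none higher in v-Src than STAT3-C cells (10 and 2 with no fold threshold), with medians of -0.04, 0.12 and -0.19. Between the lines the 6 are 8.45%, where 6.83% of all genes were lower and 4.84% higher. With no fold threshold 14.1% were lower and 2.82% higher, where 10.1% and 10.2% of all probesets were. Nop58, a core protein of the snoRNPs that guide methylation of ribosomal RNA, fell in both lines, by 1.76 and 1.33. Tcof1, which encodes the rDNA transcription factor treacle, and Utp20, of small subunit processing, also fell in both, by 1.02 and 0.82 in v-Src and by 0.64 and 1.29 in STAT3-C. Ppan rose in both (1.00 and 0.99), and Gnl3, the nucleolar GTPase nucleostemin, rose in STAT3-C (1.15) and was lower in v-Src (-1.14). Ddx56 and Dimt1 were also lower in v-Src than STAT3-C cells (-0.73 each).

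Of 15 genes of the RNA polymerase I machinery, which makes ribosomal RNA, 1 rose and 2 fell in v-Src, and 3 rose and 2 fell in STAT3-C (6.67%, 13.3%, 20% and 13.3%, where 9.54%, 10.4%, 11.9% and 10.3% of all genes did). Polr1b rose in both lines (0.84 and 0.79) and Taf1a fell in both, by 0.85 and 0.96. Taf1c fell in v-Src by 0.62 and did not pass in STAT3-C (-0.31), and Polr1e rose in STAT3-C (0.99). Polr1e and Znrd1 were lower in v-Src than STAT3-C cells (-0.71 and -0.63). They are 13.3% of the 15, where 6.83% of all genes were lower.

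Of 32 translation initiation factors, 3 rose and 2 fell in v-Src, 7 rose and 4 fell in STAT3-C (9.38%, 6.25%, 21.9% and 12.5%, where 9.54%, 10.4%, 11.9% and 10.3% of all genes did), and 2 were higher and 2 lower in v-Src than STAT3-C cells. Between the lines these are 6.25% each, where 4.84% of all genes were higher and 6.83% lower. Eif4a2, a helicase that unwinds the start of messages, fell in both lines, by 1.09 and 1.26. Eif4ebp2, a repressor of cap binding, also fell in both, by 1.30 and 0.88, and Eif4b rose in both (0.89 and 0.63). Eif4g3 fell in STAT3-C by 0.97 and Eif3m rose there (0.98). Eif4g3 was higher in v-Src than STAT3-C cells (0.98), and Eif2b5 and Eif1ax were lower (-0.84 and -0.70). Of 9 elongation and termination factors, none passed in v-Src (1 was lower at an adjusted p under 0.05 with no fold threshold), and in STAT3-C the release factors Gspt1 and Etf1 rose (1.12 and 0.62) while Eef2 fell by 0.67. In STAT3-C the shares of the 9 were 22.2% higher and 11.1% lower, where 11.9% and 10.3% of all genes were. Gspt1 was also lower in v-Src than STAT3-C cells (-1.13). Of 7 nascent chain and start-binding factors, 1 was called, Btf3, lower in v-Src than STAT3-C cells (-0.63). That is 14.3% of the 7, where 6.83% of all genes were lower.

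**Figure D4:**
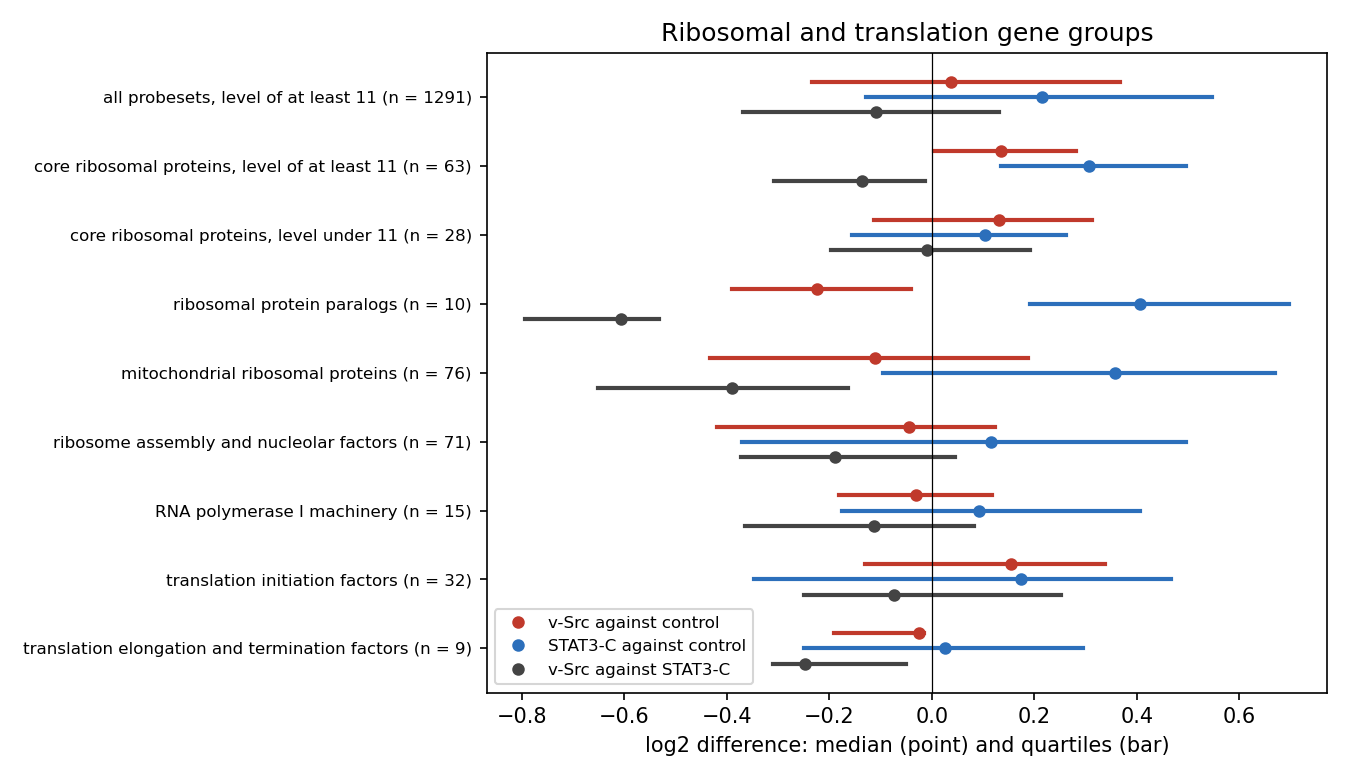
Median (point) and quartiles (bar) of the log2 difference (horizontal) over the probesets of each group (vertical, with the number in each) for the 3 pairs of lines; the top row holds all probesets with a level of at least 11. The core ribosomal proteins of high level lie close to the top row, and the mitochondrial ribosomal proteins have medians of -0.11, 0.36 and -0.39.

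The promoters were compared across the family by letters alone, with 41 RefSeq promoters for 35 of the core genes and 7 for 5 of the paralogs. In the same window, the STAT-type spacing was found in 70.7% of core promoters, 57.1% of paralog promoters and 71.0% of all 32851, and the palindrome TTCNNNGAA in 4.88% of core promoters, in none of the paralog promoters and in 5.76% of all. A pyrimidine start, a C followed by 5 C or T within 10 bases of the annotated start on the gene's strand, was found in 48.8% of core promoters and 42.9% of paralog promoters and in 19.2% of all. The windows of core and paralog promoters held a median of 12 and 11 CG pairs, and those of all promoters 4.

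The 26 bases around the start show this feature in genes that did and did not pass, with the pyrimidine run in capitals.
Rpl39l: aggCCTTTCCggatttccggtggtcg
Rpl39: gctccgcctctagcgaCTTCTTCTaa
Rpl22l1: gcgcaagcccgttCTCTTCCCacggc
Rps6: gaagtcgggCCTCTTTTTCgtgacgc
Rps24: gctggggtCCTTCCTTgcgcgttgat
Rpl27a: cgtgagCTCCTCCCTTTTCCCTTTCT
The windows are chr16:10170218-10170243 (+), chrX:37085207-37085232 (-), chr3:28805498-28805523 (+), chr4:86857352-86857377 (-), chr14:24490668-24490693 (+) and chr7:109519185-109519210 (+) of GRCm38.p6, in this order. All starts printed here hold the run, and it was present at both Rpl39l and Rpl39. Another annotated start of Rps24 (chr14:24490743-24490768, +) held none. The annotated starts of Rpl22, Rpl37, Rpl27, Rps25, Rpl11, Rps3, Rps3a1 and Rpl7l1, each called higher by at least some probesets, held none by this rule. Rps19, also called higher, held a run at only some of its annotated starts. Whether the annotated starts are those used in these cells was not tested.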

How the data were processed

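Total RNA of 3 mouse lines was hybridized by the authors to Affymetrix whole-genome mouse arrays, 3 arrays a line, with groups and array numbers taken from the sample titles. The deposited values are log2 expression from Robust Multichip Average (RMA), 1 column an array. Per the methods, the authors normalized the control arrays with each transfected line separately, and the table does not say which run its control columns come from. No count or depth exists for arrays, so the 3 arrays a line limit the precision.

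After leaving out 64 control probesets, limma 3.58.1 in R 4.3.3 (lmFit, eBayes) compared each pair of lines on its 6 arrays, with Benjamini-Hochberg adjustment over 45037 probesets, and calls required both adjusted p under 0.05 and a 1.5-fold change. Symbols came from the platform annotation: 34945 probesets had 1 symbol, 932 several and 9160 none. On simulated data with these settings limma recovered 90% to 96% of 2-fold changes and all 4-fold changes, with 11 to 13 false calls. The simulation used independent noise and changed 100 probesets by 2-fold and 100 by 4-fold, far fewer than were called here. Its rates need not hold for the deposited values. Genes with several probesets were counted by the one of highest mean level. Promoter letters were searched with python 3.11.15 in RefSeq windows of GRCm38.p6, and figures drawn with matplotlib 3.10.9.

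Genes named are those with a called probeset, all paralogs, Rpl39, the 3 highest and 3 lowest core genes in each comparison, and up to 3 called members of each list. The members, lists and this rule were chosen with earlier results of these data known, so no list is tested. The alternatives were all 9 arrays in 1 fit, another quantile normalization, median centring, a filter on low levels, other fold thresholds, SAM (20 groupings, q under 5%), leaving out each array, the array number as a block, and leaving out probesets with a suffix. Probesets of several symbols and the level threshold of 11 were added after seeing the data.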

Additional observations from a re-analysis of the deposited data

Results flagged for a closer look

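The following differed between the transfected lines by the direct test of v-Src against STAT3-C (adjusted p from limma), given as log2 differences. Paralogs lower in v-Src were Rpl22l1 (-0.93, adjusted p = 0.00168), Rpl7l1 by all 3 probesets (-0.87, -0.83 and -0.69, adjusted p = 0.0026, 0.000737 and 0.00336) and Rps27l (-0.64, adjusted p = 0.00373). Core proteins lower in v-Src were Rps25 (-0.88, adjusted p = 0.00816), Rps24 (-0.74 and -0.59, adjusted p = 0.00246 and 0.00223), Rpl27 (-0.70 and -0.67, adjusted p = 0.00129 and 0.00275) and Rps9 (-0.68, adjusted p = 0.0092). Higher in v-Src were Rps6 (0.89, adjusted p = 0.000921) and 1 Rpl22 probeset (1.12, adjusted p = 0.0152). Rps19bp1, not a ribosomal protein, was lower in v-Src (-0.84, adjusted p = 0.0167), a call lost without v-Src array 1, v-Src array 6, STAT3-C array 1 or STAT3-C array 3. The smaller Rps24 difference (-0.59) lies at the fold threshold and was lost after another quantile normalization and without v-Src array 1, v-Src array 5, STAT3-C array 1 or STAT3-C array 3. The arrays of groups of 3 are too few for a check of single outlying arrays.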

How the results depend on the processing

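Apart from Rpl39l, 8 of the 9 probesets called in v-Src, 16 of the 21 in STAT3-C and 9 of the 13 between the lines passed under another normalization, all 9 arrays in 1 fit and each array left out. SAM gave the same counts as limma, 5 and 5, 18 and 4, and 2 and 11 probesets higher and lower. Without a fold threshold 24 and 9 probesets passed in v-Src (higher and lower), 43 higher in STAT3-C, and 4 and 35 between the lines; by gene these were 13 higher, 16 higher and 10 lower. At 2-fold they were 2 and 3, 5 and 2, and 1 and 0 probesets, and by gene 1 higher in v-Src, 2 and 1 in STAT3-C, and 0 and 0. Without suffixed probesets (31 left) 2 and 3, 8 higher, and 1 and 4 passed. With probesets of several symbols (210) the counts were 11 higher, 38 and 7, and 5 and 25. With a level of at least 11 alone they were 3 and 1, 11 and 0, and 0 and 6. With probesets above the median level 2 were lower in v-Src and 1 in STAT3-C (1 and 1 by gene), and with the mean of a gene's probesets 1 gene was lower in STAT3-C and 0 higher between the lines. Leaving out arrays gave 1 to 3 probesets higher in v-Src than STAT3-C cells and 1 to 2 genes lower in STAT3-C; without STAT3-C array 3 Rps6 was lost. The core median between the lines was -0.0489 after another quantile normalization and 0.0193, reversed in sign, without suffixed probesets, so no direction is read from it. The Rpl39l difference in v-Src was -5.22 with median centring. Reversals of differences that had not passed were 0.0645 for Rpl37 between the lines after quantile normalization and -0.0201 for Rps25 in v-Src with median centring; with arrays left out the ranges were -0.0061 to 0.4186 for Rpl22 (1448398_s_at) in STAT3-C, -0.1835 to 0.0894 for Rpl3l, -0.0183 to 0.3167 for Rpl7l1 (1426386_at) and -0.0415 to 0.1542 for Rps25 in v-Src, and -0.2867 to 0.0063 for Rpl27a, -0.1419 to 0.0127 for Rpl37 and -0.0807 to 0.1323 for Rps20 (1421935_at) between the lines. Deviations from the line mean of same-numbered control and STAT3-C arrays correlated at -0.09, 0.06 and 0.04, and those of other pairs at -0.11 to 0.07. This showed no pairing by number, but with 3 arrays a line it cannot exclude one. With the number as a block the STAT3-C counts were again 18 and 4. The v-Src and control arrays share only number 1, so no paired fit was made there. The cause of these movements was not tested.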
